A study of Picea abies with 19 samples.

Results

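The transcripts described here are the 200 most variable of those detected in every sample of a Norway spruce (Picea abies) root study. They were chosen by a rule on measured values. Of 32144 spruce probes on a spotted oligonucleotide array, 2613 lay above their local background by 2 background standard deviations on all 19 arrays, and the 200 brightest of these were set aside. Among the 2413 eligible probes that remained, the 200 of highest standard deviation (SD) over 18 arrays were kept. The deposited files name probes by number and give neither a gene name nor a sequence, so each transcript is called by its probe and no function is stated.

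Each array was hybridised with amplified poly(A) RNA, labelled with 1 dye, from the washed root ends of rooted cuttings grown in peat. The cuttings belonged to 8 genotypes, and the labels also call them clones. Genotypes 15, 18, 20 and 35 have titles that begin with Fast and genotypes 52, 61, 70 and 76 titles that begin with Slow, without a statement of what was fast, so the classes are called growth classes here. At 18 months after root formation genotype 15 had 1 array and each other genotype 2 arrays, and at 5 months genotypes 20 and 35 had 1 array each and genotype 52 had 2. No sample carried a treatment or a transgene. A sample pooled several root ends, and a genotype stands for 1 clone, so differences between genotypes are differences between single clones. Replicates are numbered in the order of the deposit, and the labels do not state whether the 2 samples of a genotype came from separate plants, so the p-values measure the spread between these samples. The titles of genotype 52 replicate 2 at 18 months and replicate 2 at 5 months carry the same numbers and differ by a closing a or b. What these letters mark is not stated, and the 2 samples may be related.

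Adventitious roots arise from stem tissue of a cutting, and the fine short roots take up water and nutrients for the tree. Rooted cuttings of 1 clone share a genome, so a transcript whose level differs between clones but not between samples of a clone varies with the genotype. A transcript can also vary among samples of 1 clone, through the tissue taken, the state of the root or the measurement. In bulk root ends, fewer cells of a type and less RNA per cell cannot be told apart.

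The labels and arrays had limits that touch the results. The scanner files date the arrays to 9 scan days, numbered here in order, in 3 periods (days 1 to 4, days 5 to 7 and days 8 to 9). The share of spruce probes above background ranged from 23.1% to 57.5% over the 18 arrays used. It was 15.4% on the left-out array, genotype 76 replicate 2 at 18 months. The authors' table of the whole series and the scanner files disagreed on the identity of samples. Of the 19 scanner files, 11 matched a column of the table, with Pearson correlations across probes from 0.817 to 0.965, and 0 of the 11 matched the column of their own name. Pairs above a correlation of 0.8 counted as matches, and the correlated probes are not independent of each other. Values below were read from the scanner files, each under the label deposited with it, and results from the table are named as such.

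The spread that chose the members ran from an SD of 2.25 for Spruce_30674 down to 1.08, on the scale of log2 net intensity minus the array's median. The median SD was 1.25 for the members and 0.63 for the 2413 eligible probes. At the threshold there was no step. The last 3 members were Spruce_25370, Spruce_04197 and Spruce_22687, with SDs of 1.09, 1.08 and 1.08. The first 3 probes left outside were Spruce_12635, Spruce_16807 and Spruce_07751, with SDs of 1.08, 1.08 and 1.07.

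All further levels are normalised log2 intensities after background correction and quantile normalisation, where a difference of 1 is a doubling. All 200 members passed the filter on dim probes, since the rule required detection on every array. From its lowest to its highest array the median member spanned 4.27 log2 units, with members between 2.58 and 6.67. A span over 4 log2 units was seen in 132 of 200 members and in 150 of 2413 eligible probes, a difference that the rule itself sets. The members were not the dimmest eligible probes: with the eligible probes in 4 bins of equal size by mean level, 20 members lay in the lowest bin, 48 and 58 in the next 2 and 74 in the highest. The brightness varied more from pixel to pixel within the members' spots. The ratio of pixel SD to spot median had a median of 0.825 for members and 0.721 for eligible probes. The scanner's maximum was reached on at least 1 array by 8 members.

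Clustering on Pearson correlation over the 18 arrays, with 4 clusters, gave groups of 101, 66, 29 and 4 members, called clusters A, B, C and D. Each cluster is a description of the arrays it was drawn from. Within cluster A the median correlation between members was 0.57, within B 0.41, within C 0.25 and within D 0.51, against 0.07 over all pairs of members. Cluster A held 18 of the 20 members of highest SD, and cluster C held the other 2. The first principal component carried 40.0% of the members' variance and the second 16.5%, against 28.5% and 16.4% over the eligible probes.

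**Figure D1:**
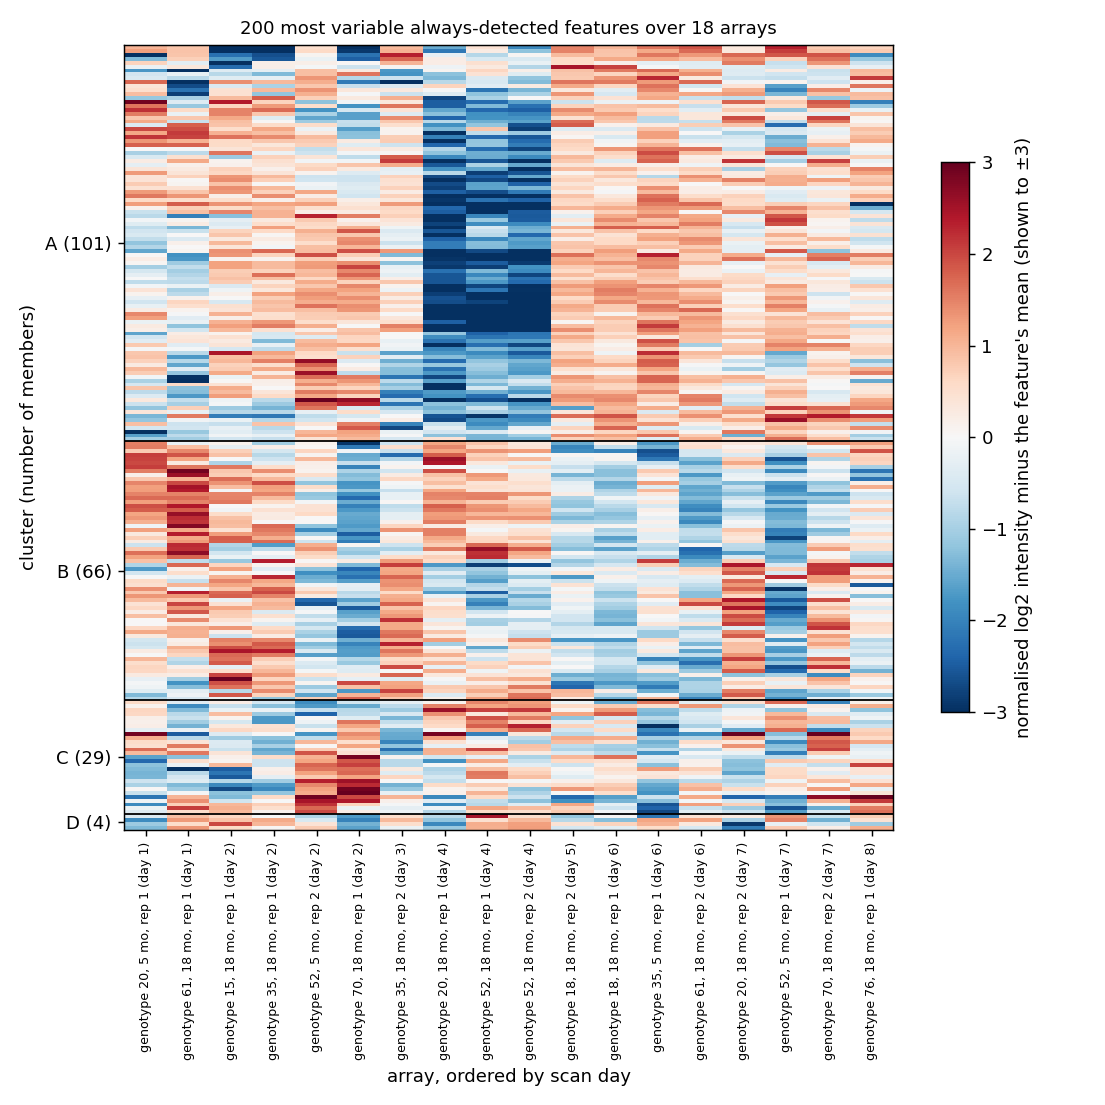
Each row is 1 of the 200 members, grouped by cluster, and each column is 1 of the 18 arrays in order of scan day. Colour is the normalised log2 intensity minus the member's mean over the 18 arrays, in log2 units and shown to ±3. In cluster A, the 3 arrays of scan day 4 have medians of -2.41, -1.60 and -1.92.

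Cluster A was set by 3 arrays. Its members were low in genotype 20 replicate 1 and in both 18-month replicates of genotype 52, with median deviations from each member's mean of -2.41, -1.60 and -1.92. On the other 15 arrays the median deviation lay between -0.22 and 1.14. These 3 arrays are all those scanned on day 4.

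Spruce_26175 shows the pattern, at 8.85 in genotype 20 replicate 1, 9.34 in genotype 52 replicate 1 and 8.74 in genotype 52 replicate 2. Over the other 15 arrays its lowest, median and highest levels were 10.90, 13.77 and 15.05, so the 3 arrays did not overlap with the rest, and their mean was 22.5-fold lower. Before normalisation its net intensity was 315, 440 and 281 on the 3 arrays and from 2061 to 31288 on the others, so the gap was in the scanner values.

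Spruce_09161 stood at 8.71, 8.79 and 8.93 on the 3 arrays and between 12.08 and 14.22 on the others, with a mean 23.8-fold lower. Spruce_28302 stood at 8.90, 8.82 and 8.65 against 11.14 to 14.46, 19.3-fold lower. Spruce_21595 stood at 7.90, 9.12 and 8.72 against 10.27 to 13.77, 14.9-fold lower. These 3 members had the same 3 lowest arrays, with no overlap. Spruce_19323, of the widest span among the members, read 8.76, 9.82 and 9.35 against 11.62 to 15.42.

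The members nearest the centre of cluster A had the same shape. They were Spruce_19842, Spruce_19748 and Spruce_21591, with mean correlations of 0.70, 0.69 and 0.69 with the other members of the cluster. Their day-4 means were 9.94-fold, 17.0-fold and 14.9-fold below the mean of the other arrays.

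In all, 55 of 200 members (27.5%) lay on the 3 arrays of scan day 4 below all other 15 arrays, against 4.89% of the eligible probes. Of these 55 members 54 were in cluster A. In the opposite direction 1 of 200 members lay above all others, against 1.91% of the eligible probes. The comparison was made after the values were seen, and the rule's SD favours probes with such a gap, so it is a description. No member lay below all other arrays on the 4 arrays of day 2 or the 3 arrays of days 6 or 7, against 0%, 0% and 0.166% of the eligible probes. On days 2, 6 and 7 each array was of a different genotype, while day 4 held both 18-month arrays of genotype 52. These 2 arrays alone lay below all others for 20 members (10.0%), against 4.35% of the eligible probes. With cyclic loess normalisation the day-4 count was 57, and without background correction 55.

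Only genotype 20 had 18-month arrays both on day 4 and on another day, with 1 on day 4 and 1 on day 7. Cluster A was drawn from these arrays among others, so its values here are a description. Sample and scan day differ together between these 2 arrays of genotype 20, and their parts cannot be told apart. Between these arrays the median absolute difference over cluster A was 2.56 log2 units. The day-4 array lay below both other arrays of genotype 20, at 18 and at 5 months, for 91 of 101 members of cluster A and for 23.9% of the eligible probes. The day-7 array of this genotype lay a median of 0.30 above the 5-month array over cluster A. For genotype 52 both 18-month arrays were of day 4 and both 5-month arrays of other days, and for it the effects of age and of scan day cannot be told apart. Both 18-month arrays lay below both 5-month arrays for 88 of 101 members of cluster A, with a median difference of -2.36. Over the eligible probes the share was 29.1% and the median difference -0.05.

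The 3 arrays were not dim as a whole. Their shares of spruce probes above background were 57.5%, 35.8% and 43.4%, and the first was the highest of all arrays. Over the eligible probes the day-4 mean differed from the mean of the other arrays by a median of 0.02. Quantile normalisation gives all arrays the same distribution of values, so this median cannot show whether an array was dim. The part of the scan day, or of anything else these samples share, in the low values was not tested. In the authors' table, the columns that match these 3 scanner files, at correlations of 0.965, 0.960 and 0.930, carry the names of genotype 52 replicate 2 and of both 18-month replicates of genotype 61.

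Members of cluster A were unevenly placed on the array, whose spots are printed in 48 blocks. The 4 blocks 17, 21, 23 and 27, picked after the counts were seen, held 37 of the 101 members (36.6%) and 7.79% of the eligible probes. Over all members the share was 22.5%. Of the 200 members 6 touched another member's spot. Touching spots do not measure looser groups within a block, and the part of the position on the array was not tested. Probe numbers were uneven as well: 50 of 101 members of cluster A, but 21.8% of eligible probes, had a number above 24108, of 32144. What the numbering follows was not stated in the labels or files.

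Spruce_30674, the member of highest SD, departed from the pattern in 1 array. It read 10.10 in genotype 20 replicate 1, 9.24 and 9.39 in genotype 52 at 18 months, and 8.92 in genotype 76 replicate 1, which was scanned on day 8. All other arrays lay between 13.50 and 14.99. The levels thus fell into a low set of 4 arrays and a high set of 14 with no values between 10.10 and 13.50. On the left-out array of genotype 76, normalised with all 19 arrays, it read 10.86. The 3 members most like it over the 18 arrays were Spruce_30742, Spruce_28302 and Spruce_13080, with Pearson correlations of 0.91, 0.83 and 0.82. In genotype 76 replicate 1 these stood at 12.66, 11.59 and 12.51, below their medians but above their day-4 arrays.

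Spruce_10909 and Spruce_02539, also placed in cluster A, had other low arrays. Spruce_10909 read 8.52 in genotype 15, 9.01 in genotype 35 replicate 1 and 9.41 in genotype 70 replicate 1, and 10.50 to 14.78 elsewhere. These 3 arrays were scanned on day 2, and the other array of that day, genotype 52 replicate 2 at 5 months, read 12.93. The second arrays of genotypes 35 and 70 read 13.41 and 13.22. Its closest partner was Spruce_10827, at a correlation of 0.987. Spruce_02539 was low in the day-4 arrays, at 9.05, 8.73 and 9.56, and equally in genotype 15 (9.58) and genotype 35 replicate 1 (9.51).

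Cluster B, of 66 members, varied along another set of arrays. Its median deviation was highest in genotype 61 replicate 1 (1.11) and genotype 15 (0.88), and lowest in genotype 52 replicate 1 at 5 months (-1.50), genotype 70 replicate 1 (-1.49) and genotype 61 replicate 2 (-1.04). The 2 arrays of genotype 61 thus stood on opposite sides, and their median absolute difference over the cluster was 1.88 log2 units. The members nearest its centre were Spruce_28342, Spruce_24041 and Spruce_25217. Spruce_28342 read 14.85 and 12.38 in genotype 61, 11.46 and 13.65 in genotype 70, and 15.26 and 13.89 in genotype 35. Within these genotypes the 2 replicates differed by over 1 log2 unit.

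Cluster C, of 29 members, was the least uniform. Its median deviation was 1.19 in genotype 70 replicate 1 and 1.04 in genotype 52 replicate 2 at 5 months, both of day 2. On the other arrays of that day, genotype 15 and genotype 35 replicate 1, it was -0.41 and -0.61. In genotype 35 at 5 months it was -1.25. Spruce_13935, Spruce_07035 and Spruce_15710 lay nearest its centre. Spruce_07035 read 15.09 in genotype 70 replicate 1 and 12.89 in replicate 2, and 10.93 in genotype 15.

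Cluster D held 4 members, Spruce_10747, Spruce_13654, Spruce_22264 and Spruce_13647. Their median deviation was low on all 3 arrays of genotype 20, at -1.15 and -1.55 at 18 months and -1.21 at 5 months. In genotype 70 it was -1.66 and -0.63. On replicate 2 of each of these genotypes at 18 months, 1 of the 4 members lay above its own mean. In both 18-month arrays of genotype 52 they were high, at 1.08 and 1.11. The 2 arrays of a genotype differed by a median of 0.34 log2 units over cluster D, and arrays of different genotypes by 1.19. Within genotypes 20 and 70 the difference was 0.97 and 0.94.

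The question of how far the variable transcripts follow the genotype was set out over the 6 genotypes with 2 usable arrays at 18 months. The median absolute difference over the members was 0.45 log2 units between the arrays of genotype 18, 0.49 for genotype 52 and 0.60 for genotype 35. It was 1.19 for genotype 70, 1.25 for genotype 61 and 1.76 for genotype 20. In the first 3 genotypes both arrays were scanned in 1 period, and in the latter 3 in different periods, with no overlap between the sets. For the eligible probes the first 3 values were 0.31 to 0.39 and the others 0.58 to 0.70.

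Between arrays of different genotypes the median over 60 pairs was 1.35 for the members, with pairs from 0.49 to 2.22, and 0.59 for the eligible probes. Scan period separated these pairs little: the median was 1.35 for 28 pairs of 1 period and 1.31 for 32 pairs of different periods. Genotype 20 replicate 1 differed from the 2 arrays of genotype 52 on day 4 by 0.74 on average, and its own second replicate differed from them by 1.80. Without the 3 arrays of day 4 the median difference between genotypes fell to 0.973, beside 0.893 for the median within genotypes over the pairs that remained.

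**Figure D2:**
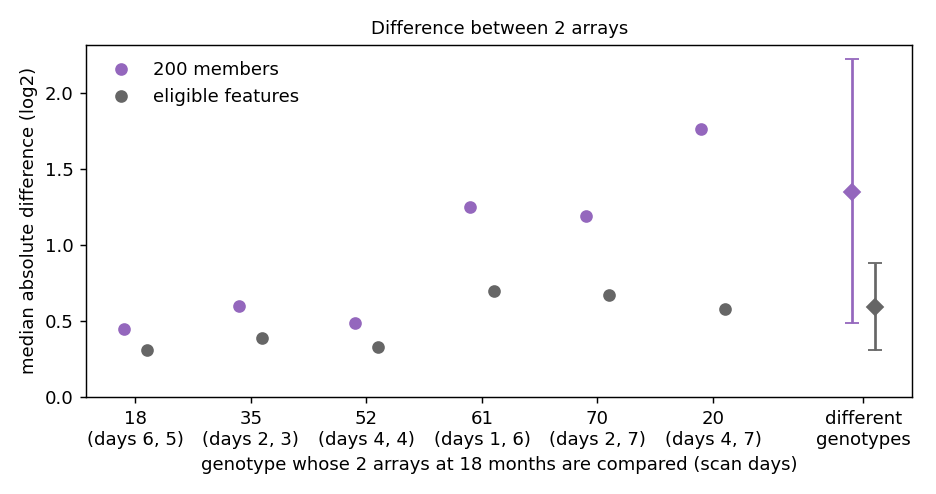
Points give the median absolute difference in normalised log2 intensity between the 2 arrays of a genotype at 18 months, over 200 members (purple) and 2413 eligible probes (grey). Diamonds give the median over 60 pairs of arrays of different genotypes, with bars from the lowest to the highest pair, 0.49 to 2.22 for members. Genotypes 18, 35 and 52, at 0.45, 0.60 and 0.49, lie below genotypes 61, 70 and 20.

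Genotype was tested on the 14 arrays of 18-month cuttings with limma's moderated F-test, adjusted by Benjamini-Hochberg over 15963 probes. Of all probes 3.27% passed at an adjusted p under 0.05, of the eligible probes 1.45%, and of the members 23 of 200 (11.5%). At an unadjusted p under 0.05 the count was 102 members (51.0%), against 23% of all probes. The members were selected on spread over arrays that include these, and spread between genotypes adds to that SD, so this count describes the members and does not test them as a set. Among the 23, genotype means spanned 2.75 to 6.02 log2 units. Genotype 52 lay farthest from the mean of the genotypes for 7 of the 23, below it in 6. With scan day 4 as a term in the model 8 members passed, all 8 among the 23, and 1.45% of all probes. Without the 3 arrays of day 4, which leaves no array of genotype 52 and 1 of genotype 20 at 18 months, 6 members passed, all 6 among the 23, and 0.71% of the probes kept. Under the names in the authors' table no member passed, with 90 at an unadjusted p under 0.05 against 16.7% of all probes.

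Spruce_08466 was split between genotypes over the arrays of both ages. Its levels were 12.36 and 12.41 in genotype 18, 12.48 and 12.45 in genotype 20, 12.47 and 12.78 in genotype 70, and 11.86 in genotype 76 replicate 1. They were 10.19 in genotype 15, 10.02 and 9.73 in genotype 35, 10.90 and 10.48 in genotype 52, and 10.45 and 10.38 in genotype 61. The 5-month arrays, which did not enter the test, stood with their genotypes: 12.35 in genotype 20, 10.27 in genotype 35, and 10.46 and 10.52 in genotype 52. High and low genotypes did not overlap, with a gap of 0.95 from 10.90 to 11.86, and each growth class held genotypes of both kinds. Among the 23 members that passed, not all 5-month arrays stood this way. An array was nearer its own genotype than the median other genotype for 18 members in genotype 20 and 14 in genotype 35. In genotype 52 the counts were 10 and 9. An array unrelated to its genotype would be nearer than the median about as often as not. The eligible probes were not counted in this way.

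The adjusted p of Spruce_08466 was 0.00496 in limma's F-test, and 0.0347 without the day-4 arrays. The genotype means spanned 2.75 log2 units, or 6.74-fold. In the authors' table its adjusted p was 0.814 under the column names. A split of this kind was sought over the arrays of both ages. It needed at least 2 genotypes on each side and the largest gap over 0.5 log2 units. Such a split was found in 1 of 200 members and in 0.166% of the eligible probes. It was searched for after this probe's values were seen.

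Spruce_10407 had the smallest p among the members, adjusted p = 0.00323 by the same test. It read 15.67 in genotype 76 replicate 1, 14.36 and 15.07 in genotype 70, 13.41 and 13.54 in genotype 61, 13.00 and 13.42 in genotype 35, and 12.98 and 11.74 in genotype 52. It read 11.08 in genotype 15, 10.73 and 10.07 in genotype 18, and 10.45 and 9.99 in genotype 20. The levels ran as a graded series over genotypes, with a span of 43.6-fold between the means of genotypes 76 and 20, and genotypes 61, 35 and 52 not separated by more than their replicates. At 5 months the 2 arrays of genotype 52 read 10.31 and 15.31, on either side of its 18-month values. The left-out array of genotype 76 read 15.26.

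Spruce_13654 was low in genotypes 18 (11.39 and 11.84), 20 (11.49 and 11.68) and 70 (10.67 and 11.23), and between 13.12 and 13.96 in the other 5 genotypes at 18 months. The 2 sets did not overlap at that age, and its adjusted p in the limma test was 0.00621. At 5 months genotype 20 read 10.78, genotype 35 read 13.86, and genotype 52 read 14.17 and 12.22. These are the same genotypes as in the upper set of Spruce_08466, without genotype 76, and the order is turned.

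Spruce_10747 was lowest in genotype 20, at 9.21 and 8.25 at 18 months and 10.06 at 5 months. It was 10.08 in genotype 76 replicate 1 and 9.73 and 10.56 in genotype 70, and the remaining genotypes lay between 11.48 and 13.14 at 18 months. Its adjusted p was 0.00673 in the limma test. At 18 months Spruce_27480 was low in genotypes 18 and 61, at 10.48 to 11.73, and 12.45 to 14.62 in the others, with an adjusted p of 0.0159. Its 5-month arrays read 12.58 in genotype 20, 10.98 in genotype 35, and 12.44 and 12.73 in genotype 52, so genotype 35 fell in the lower range at that age. Spruce_04238 had the same genotypes low at 18 months, at 10.58 to 12.04 against 13.15 to 14.59, with an adjusted p of 0.0199, and 0.0698 without the day-4 arrays. At 5 months it read 12.82 in genotype 20, 10.86 in genotype 35, and 13.33 and 11.86 in genotype 52, and the split did not hold there.

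The other members named by smallest p were Spruce_30674, adjusted p = 0.0172, and Spruce_11769, adjusted p = 0.0236 in the limma test. The second was lowest on the day-4 arrays, where the effects of scan day and of genotype 52 cannot be told apart. It read 11.47 and 11.71 in genotype 52 at 18 months and 13.47 in genotype 20 replicate 1, against 13.91 to 15.56 on the other arrays. Without the day-4 arrays its adjusted p was 0.722. Spruce_16843, the third of highest SD, was high in genotype 20 on all 3 arrays (14.88 and 15.54 at 18 months, 14.91 at 5 months) and in genotype 70 (13.45 and 15.06). It read 9.97 and 12.37 in genotype 52.

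**Figure D3:**
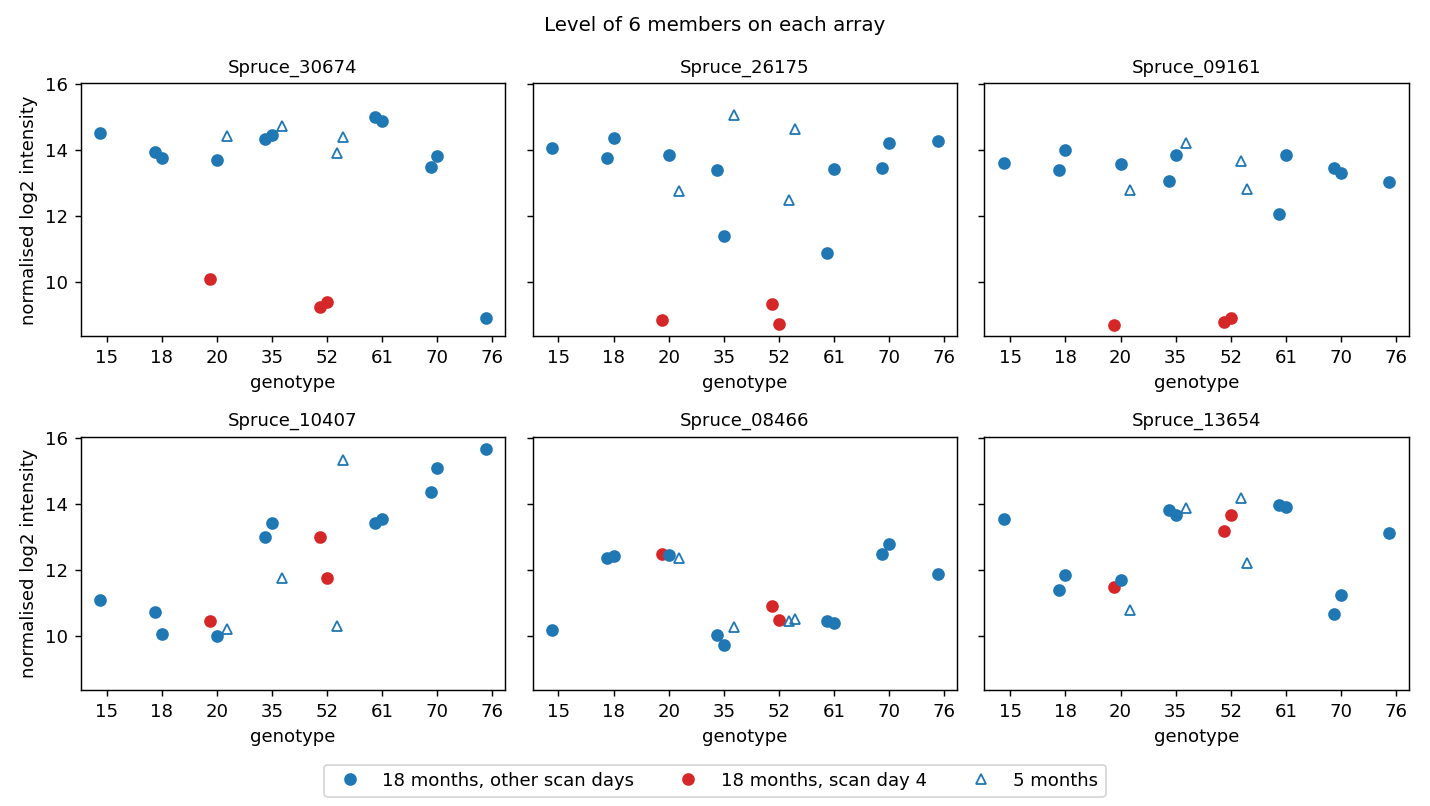
Normalised log2 intensity of 6 members on each of 18 arrays, by genotype. Filled circles are 18-month arrays, red for scan day 4, and open triangles are 5-month arrays. The red points are lowest for Spruce_26175 and Spruce_09161, at 8.74 to 9.34 and 8.71 to 8.93. Spruce_08466 groups by genotype, and Spruce_13654 does so at 18 months.

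Age was compared within genotypes 20, 35 and 52, which were sampled at both ages, as the level at 18 months minus that at 5 months with genotype as a term. Of all 15963 probes 0% passed the adjusted threshold in limma, and 0 of 200 members did, with a lowest adjusted p of 0.148. Unadjusted, 73 of 200 members (36.5%) were lower at 18 months at p under 0.05, against 6.87% of all probes. Another 17 were higher, against 6.68% of all probes. All 73 were in cluster A, and the 3 arrays of scan day 4 were all 18-month arrays of genotypes 20 and 52. With day 4 as a term, members at an unadjusted p under 0.05 numbered 23 rather than 90, while the share of all probes was 6.32% rather than 13.6%, and the median difference over cluster A went from -1.64 to -0.43.

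The smallest p for lower levels at 18 months belonged to Spruce_25652 (-2.15 ± 0.44, fitted log2 difference and its standard error, SE), Spruce_28659 (-2.68 ± 0.58) and Spruce_08103 (-2.10 ± 0.46). Their adjusted p was 0.178 in each case. With day 4 as a term the differences were -1.41, -0.90 and -1.15. For higher levels at 18 months the smallest p belonged to Spruce_19084 (2.21 ± 0.36, adjusted p = 0.148), Spruce_17814 (1.59 ± 0.34) and Spruce_04238 (1.73 ± 0.41), the latter 2 at 0.178. All 3 were in cluster B. Spruce_19084 read 12.34 and 13.21 in genotype 20, 13.10 and 13.72 in genotype 35 and 12.80 and 12.53 in genotype 52 at 18 months. At 5 months it read 11.32, 10.22, and 10.11 and 11.10 in the same order. The ages did not overlap in any of the 3 genotypes, and with day 4 as a term the difference was 2.73.

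When 1 array, genotype 20 replicate 2 at 18 months, was left out, 35 members passed the age test, 32 of them lower at 18 months. Of all probes in that fit 1.09% passed, and 0.804% passed as lower at 18 months. That array is the one of this genotype at 18 months not scanned on day 4.

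Growth class was compared on genotype means at 18 months, 4 fast against 4 slow genotypes, since a class belongs to a genotype. Of all probes 0% passed the adjusted threshold in limma, and 0 of 200 members did, with a lowest adjusted p of 0.992. At an unadjusted p under 0.05 there were 20 of 200 members, 9 higher and 11 lower in slow genotypes, against 3.67% of all probes. The smallest p values for higher levels in slow genotypes were those of Spruce_01742 (1.57 ± 0.34, log2 difference and SE), Spruce_10407 (2.83 ± 0.78) and Spruce_06719 (1.35 ± 0.50). For lower levels they were those of Spruce_24547 (-1.17 ± 0.43), Spruce_26257 (-1.41 ± 0.53) and Spruce_19565 (-1.12 ± 0.42). All 6 had an adjusted p of 0.992. Spruce_01742 had genotype means of 9.89 to 11.02 in fast and 11.44 to 12.45 in slow genotypes, which did not overlap. Its single arrays did overlap. Genotype 20 replicate 1 read 11.79, above genotype 61 replicate 2 at 11.08 and genotype 70 replicate 1 at 11.09.

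A second reading of the members' spread came from 8 columns of the authors' table that matched no scanner file above 0.8. The best correlation of an unmatched scanner file with any column was 0.672, so these columns may still hold some of the same arrays. Over them the members had a median SD of 1.08 and the eligible probes 0.74, and 70 of 200 members were among the 200 of highest SD. The median member stood at percentile 86.4 of the eligible probes. By cluster the median percentile was 72.3 for A, 90.3 for B, 90.5 for C and 98.7 for D. The columns matched to the day-4 scanner files are not among the 8 columns. The low values of cluster A on the day-4 arrays were thus left out of these percentiles by the choice of columns. The ranks therefore cannot show whether the day-4 gap recurs, and the part of this choice in the lower rank of cluster A was not tested. Members with a day-4 gap stood at low and high places: Spruce_21595 was at percentile 26.4, Spruce_09161 at 34.5 and Spruce_19323 at 90.3. Spruce_30674, low on day 4 but also in genotype 76 replicate 1, was at 12.4. Spruce_10407 and Spruce_16843 had the 2 highest percentiles among the members. Spruce_08466 was at 89.7.

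**Figure D4:**
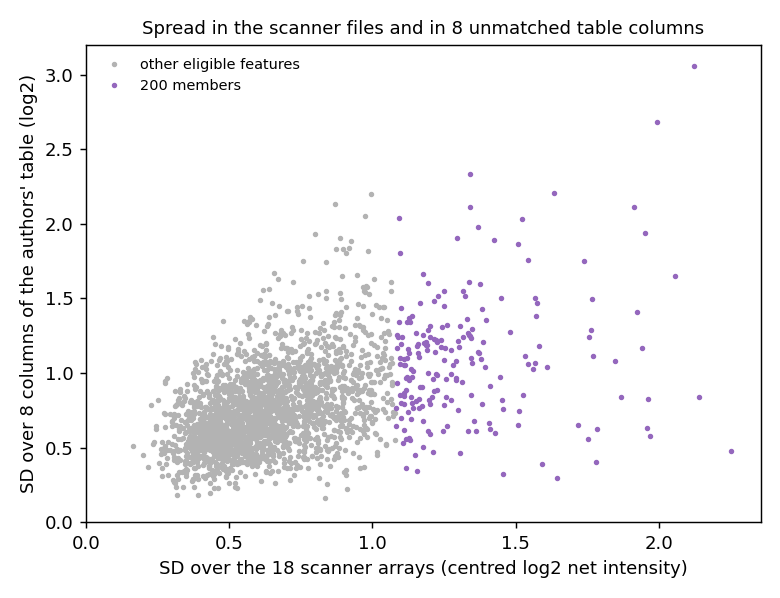
Each point is 1 of 2413 eligible probes, with the SD over 18 scanner arrays on the horizontal axis and the SD over 8 unmatched columns of the authors' table on the vertical axis, both in log2 units. Members (purple) begin at 1.08 on the horizontal axis by the rule, and their median on the vertical axis is 1.08 against 0.74 for all eligible probes.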

How the data were processed

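Per the file headers, the deposited scanner files hold intensity values, as median pixel brightness of 34992 spots and their local background, not normalised. Of these spots 2848 are controls. The headers of 1 file, genotype 76 replicate 1, name another laser channel. The deposited table holds log2 values processed by the authors in steps not given in the sources used here, floored at 0, with column medians from 1.43 to 5.08. Its scale was read from the values, and its centring is unknown. It had 0 columns without a sample.

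The members and the tests were chosen with earlier results of these data known. Intensities were background-corrected (normexp, offset 50) and quantile-normalised over 18 arrays in limma 3.58.1 under R 4.3.3, and 15963 probes above background on at least 4 arrays were kept. Fits were tested on simulated data. P-values are two-sided and were adjusted by Benjamini-Hochberg over the probes kept. The number of arrays limits the precision. Members were named by a rule: the 10 of highest SD, those of smallest p in each test (8 for genotype, 3 per direction for age and class), 3 at each cluster's centre, the 3 on either side of the SD threshold, and the 3 most correlated with the member of highest SD. Cluster D, too small for that rule, and Spruce_10827 were named after their values were seen. Alternatives changed the arrays, background correction, normalisation, filter, scan terms and source of values. Descriptions used Python 3.11 with scipy.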

Additional observations from a re-analysis of the deposited data

Results flagged for a closer look

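Within the 7 arrays of fast genotypes and the 7 of slow genotypes at 18 months, a named member was marked where its highest or lowest array stood apart from the rest by Dixon's criterion at 95%. Of 84 such groups 14 were marked. Chance marks about 1 in 20 groups of features not chosen for their spread. That rate is no measure here, since a lone low array raises the SD that chose the members, and members share arrays. In 11 of the 14 the array that stood apart was genotype 20 replicate 1, the only fast array of scan day 4, and it was the lowest in each. Its levels were 10.10 for Spruce_30674, 7.90 for Spruce_21595, 8.90 for Spruce_28302, 8.71 for Spruce_09161, 8.36 for Spruce_19748 and 11.77 for Spruce_30742. They were 10.65 for Spruce_21591, 8.80 for Spruce_19842, 9.07 for Spruce_28659, 10.55 for Spruce_13080 and 11.34 for Spruce_26257. The next lowest fast array was 13.71, 11.57, 12.82, 13.07, 11.60 and 14.70 for the first 6 and 14.21, 11.81, 11.98, 13.15 and 14.18 for the others.

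In the other 3 the array was another. Spruce_22687 was lowest in genotype 15, at 11.53 against 13.38 for the next. Spruce_26257 was highest among slow genotypes in genotype 70 replicate 2, at 15.48 against 13.12. Spruce_04197 was lowest in genotype 70 replicate 1, at 9.35 against 11.43.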

How the results depend on the processing

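The count of 23 members passing the genotype test depended on the processing. It was 8 with all 19 arrays and 9 without background correction, with 0.575% and 1.31% of all probes. On the scale that chose the members it was 4, and with probes detected on all arrays alone also 4. In these 2 fits 0.153% of 2613 probes passed. In the authors' table under its own names it was 0, with 0% of all probes. It was 139 within scan period 1 and 90 within period 2, where few replicates remain and the shares of all probes that passed were 15.8% and 14.7%. It was 8 (1.45% of all probes) with scan day 4 as a term and 36 (11.2%) with scan day as a random block. Without the 3 arrays of day 4 it was 6 (0.71%), and all 3 settings were chosen after seeing the data. Leaving out 1 array gave 4 to 61. The highest count was without genotype 20 replicate 2, with 4.57% of all probes, and the lowest without genotype 18 replicate 2, with 0.747%. The cause was not tested. The age test passed 0 members except within period 1 (56, with 2.19% of all probes), where all 18-month arrays of genotypes 20 and 52 are of day 4, and when 1 array was left out (0 to 35). Within period 2 it could not be fitted, since no genotype there has both ages. The class test passed 0 members in every setting run. Of the 200 members, 119 were chosen again by median absolute deviation and 137 without the day-4 arrays, and 163 with all 19 arrays. No paired analysis was possible because replicate numbers follow the order of the deposit, and the titles link at most 1 pair of samples, of genotype 52 at the 2 ages.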

Other observations

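Members whose probe numbers differ by at most 10 formed 15 pairs, with a median correlation of 0.34 over the 18 arrays, against 0.07 over all pairs of members. For eligible probes the medians were 0.08 over 1816 such pairs and 0.00 over all. The arrays, and the 3 arrays of scan day 4 above all, are shared by every pair. The highest were Spruce_26175 with Spruce_26174 at 0.85 and Spruce_21595 with Spruce_21591 at 0.81, printed in different blocks. A correlation over 0.9 was reached by 174 pairs of members, 160 of them in cluster A and 14 in cluster B.

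On the left-out array of genotype 76, normalised with all 19 arrays, 174 of 200 members (87.0%) lay within the range of the other 18 arrays, and 58.8% of the eligible probes did. The members' ranges are wider by the rule. The median absolute difference from genotype 76 replicate 1 was 0.87 for both sets.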
